A study of Mus musculus with 6 samples.

Results

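The Ms4a genes described here are Ms4a7, Ms4a4a, Ms4a4b, Ms4a4c, Ms4a6b, Ms4a6c and Ms4a6d, 7 of the 54532 genes of the count table. They were chosen by name after results of the same comparison were known, so their differences between the groups are given as a description without a test. All 7 were counted in every library and passed edgeR's filter on low counts, which kept 14883 genes of the table. RNA-seq was made from mouse spleen CD8T cells that were stimulated with beads against CD3 and CD28 and then kept for 24 hr, at a ratio of 1 macrophage per CD8T cell, with thioglycolate-induced peritoneal macrophages that had first been activated for 12 hr by IFN-γ at 10 ng/mL. The macrophages of the control samples (n = 3) had received no DB2313, and those of the DB2313 samples (n = 3) had received this compound, which inhibits the transcription factor Spi1 (PU.1) and was used at 14 nM according to the methods. GEO's labels divide the samples the same way but name DC cells where the methods name macrophages, and their protocol field reads the same for both groups. Whether the 3 samples of a group came from separate cultures is not given, so p-values measure the spread between these samples, which may be technical.

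MS4A proteins cross the cell membrane several times and are encoded side by side in a gene cluster, with different members used by different leukocytes. Ms4a7 and Ms4a4a are known from macrophages, where the Ms4a4a protein associates with Dectin-1, the beta-glucan receptor encoded by Clec7a. Ms4a4b is known from T cells, where its protein associates with GITR, the costimulatory receptor encoded by Tnfrsf18. Ms4a4c, Ms4a6b, Ms4a6c and Ms4a6d have been described in monocytes, macrophages or T cells, and no cell type was assigned to them here. The libraries are bulk RNA, in which fewer cells of a type and less RNA per cell cannot be told apart.

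The 7 genes lie on chromosome 19 of mouse build GRCm38, between 11321039 and 11604849, in the order Ms4a7, Ms4a4a, Ms4a4c, Ms4a4b, Ms4a6c, Ms4a6b and Ms4a6d. Ms4a7 and Ms4a6d are on the minus strand and the other genes on the plus strand. Promoters of 4 of them, from 250 bases before to 50 after the start site in RefSeq (GRCm38.p6), are shown because Ms4a4b and Ms4a4c are the most similar pair of the cluster, whereas Ms4a7 and Ms4a4a are the genes that differed most between the groups, in opposite directions. They were at chr19:11336097-11336396 (minus strand) for Ms4a7, chr19:11375238-11375537 (plus) for Ms4a4a, chr19:11443308-11443607 (plus) for Ms4a4b and chr19:11407411-11407710 (plus) for Ms4a4c. Capitals mark GAGGAA, the core of sequences bound by Spi1, which was searched on both strands.
Ms4a7: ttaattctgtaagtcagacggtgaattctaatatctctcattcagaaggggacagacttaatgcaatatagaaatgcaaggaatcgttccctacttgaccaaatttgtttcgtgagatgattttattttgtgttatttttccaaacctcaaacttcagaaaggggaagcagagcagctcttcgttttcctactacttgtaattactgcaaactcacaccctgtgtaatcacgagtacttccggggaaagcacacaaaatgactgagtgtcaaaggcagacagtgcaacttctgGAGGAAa
Ms4a4a: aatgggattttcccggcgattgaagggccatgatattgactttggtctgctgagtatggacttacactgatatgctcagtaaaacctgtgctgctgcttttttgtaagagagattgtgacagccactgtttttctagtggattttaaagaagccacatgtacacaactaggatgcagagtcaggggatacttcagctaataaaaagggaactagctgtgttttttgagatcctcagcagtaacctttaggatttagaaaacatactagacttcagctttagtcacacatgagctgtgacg
Ms4a4b: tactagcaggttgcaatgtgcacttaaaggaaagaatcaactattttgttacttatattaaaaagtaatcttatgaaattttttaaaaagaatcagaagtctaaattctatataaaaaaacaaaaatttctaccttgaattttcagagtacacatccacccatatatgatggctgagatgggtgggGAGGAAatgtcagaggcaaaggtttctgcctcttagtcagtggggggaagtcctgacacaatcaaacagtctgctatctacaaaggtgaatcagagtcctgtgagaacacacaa
Ms4a4c: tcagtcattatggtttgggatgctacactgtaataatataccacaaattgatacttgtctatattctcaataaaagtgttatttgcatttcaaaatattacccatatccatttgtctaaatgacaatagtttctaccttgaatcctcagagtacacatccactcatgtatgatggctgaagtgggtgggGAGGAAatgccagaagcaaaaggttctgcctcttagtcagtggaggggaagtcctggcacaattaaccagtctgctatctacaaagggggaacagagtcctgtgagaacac

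The Ms4a4b and Ms4a4c promoters were 72.1% identical over their global alignment and held GAGGAA at nearly the same place, 64 and 61 bases before the start site. In Ms4a7 the same letters stood 43 bases after the start site of the upstream one of its 2 promoters in the table. The promoters of Ms4a4a, Ms4a6b and Ms4a6c did not hold them, and Ms4a6d had no entry. GAGGAA was thus present for 3 of the 6 genes with a promoter and in 3 of their 7 promoters, of which those of Ms4a4b and Ms4a4c are similar. Among the 32851 promoters of 300 bases in the table, 28.3% held it. The windows of Ms4a6b and Ms4a4c began at 11518309 and 11407411, downstream of the starts of the counted genes at 11516512 and 11404770. Sequence before those upstream starts was not searched. Neither the longer form GAGGAAGT, which contains GAGGAA and was found in 3.2% of all promoters, nor the interferon-stimulated response element, found in 3.44%, was present for any of the 6 genes. Ms4a6b and Ms4a6c came next in promoter identity with 51.2%, and the other pairs ranged from 40.4% to 47.6%.

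The coding sequences fell into the same groups. Ms4a4b and Ms4a4c were 91.7% identical in their longest coding sequences, Ms4a6b and Ms4a6d 79.8%, Ms4a6b and Ms4a6c 74.0%, and Ms4a6c and Ms4a6d 66.8%. Ms4a4a was 59.6% identical to Ms4a4c and 58.7% to Ms4a4b, and Ms4a7 was no more than 51.1% identical to any other. Such similarity can split or share reads between genes. Of the different 50-base stretches of the annotated transcripts, 8.19% in Ms4a4c, 3.57% in Ms4a6b, 2.54% in Ms4a6d and 2.4% in Ms4a4b were also present in another gene on the same strand, against 0.306% in Ms4a7 and 0.0% in Ms4a4a. Ms4a6c is the most exposed, with 10.5% of its stretches shared on the same strand and 1088 exonic bases, 53.1% of its exons, opposite those of BE692007. The strand setting of the counting is not given in the sources used here, so reads of Ms4a6c and BE692007 may not have been told apart.

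In the DB2313 group, 5 of the 7 genes were higher than in the control group without overlap of the libraries, 1 was lower without overlap and 1 overlapped. Among all genes tested, 25.6% were higher and 27.5% lower without overlap. The 7 genes together took 0.0973% to 0.102% of all counts in the control libraries and 0.164% to 0.168% in the DB2313 libraries. Their median log2 fold change was 0.64, beside 0.02 over all genes tested. Values are CPM, counts scaled to the size of the library with TMM normalization, and a log2 fold change is DB2313 minus control. Its standard error (SE) is approximate, the absolute log2 fold change divided by the square root of the F statistic of edgeR's quasi-likelihood test.

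Ms4a7, the macrophage gene, had the largest positive difference. Its CPM was 29.9, 29.3 and 33.9 in the control libraries and 83.2, 80.9 and 87.6 in the DB2313 libraries. Every DB2313 library was above every control library. The log2 fold change was 1.44 (SE 0.0625), a 2.71-fold higher level, and 75 of the 14883 genes tested had a larger one.

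Ms4a4a, the partner of Dectin-1 and also a macrophage gene, went the other way. Its CPM was 24.8, 23.6 and 21.6 in the control libraries and 11.4, 11.1 and 9.73 in the DB2313 libraries. All control libraries lay above all DB2313 libraries, with 354 to 447 counts against 179 to 211. The log2 fold change was -1.12 (SE 0.0988), and 656 genes had a smaller one. Ms4a7 and Ms4a4a were the genes of the 7 beyond a 2-fold difference, 1 in each direction, where 1.5% of all genes tested lay above and 5.47% below this limit.

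Ms4a4b, the T cell gene and partner of GITR, was higher as well, but by less than Ms4a7. Its CPM was 343, 349 and 328 in the control libraries and 598, 570 and 579 in the DB2313 libraries. The groups were far apart relative to the spread within each, and the log2 fold change was 0.78 (SE 0.0343). Larger increases were fitted for 475 genes, or 3.19% of those tested.

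Ms4a4c, the close relative of Ms4a4b, had 49.0, 48.0 and 48.3 CPM in the control libraries and 75.8, 73.4 and 76.7 in the DB2313 libraries. Its log2 fold change of 0.64 (SE 0.0521) was a little below that of Ms4a4b. Of its 50-base stretches, 7.73% were present in Ms4a4b, whose counts were larger in every library.

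Ms4a6b, the member with the highest CPM, was measured at 455, 460 and 437 CPM in the control libraries and at 694, 696 and 711 in the DB2313 libraries. Its log2 fold change was 0.64 (SE 0.0323), and the groups did not overlap. Ms4a6c had 45.6, 46.4 and 44.3 CPM in the control libraries and 64.0, 63.4 and 59.1 in the DB2313 libraries. The groups were again separate, with a log2 fold change of 0.45 (SE 0.0575), which turned to -0.14 when the libraries were scaled to T cell markers instead.

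Ms4a6d, close to Ms4a6b in sequence, was the gene whose groups overlapped. Its CPM was 98.7, 97.2 and 96.8 in the control libraries and 96.5, 98.2 and 96.0 in the DB2313 libraries. The log2 fold change was -0.01 (SE 0.0409) and became 0.084 and 0.054 with library size and upper quartile scaling and -0.60 with T cell marker scaling.

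**Figure D1:**
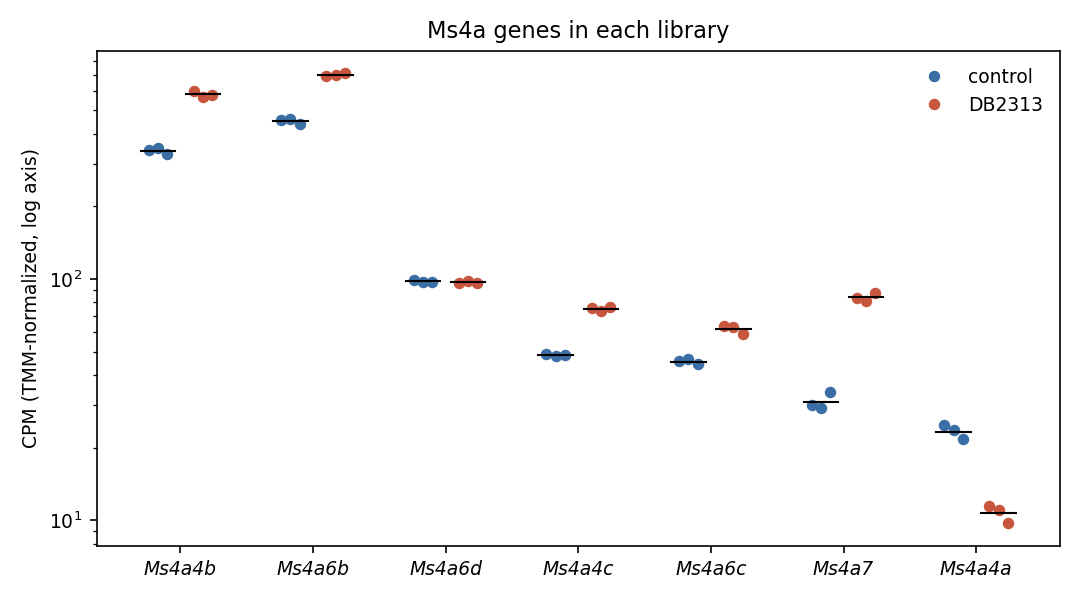
TMM-normalized CPM (log axis) of the 7 Ms4a genes in the 3 control libraries (blue) and the 3 DB2313 libraries (red), with each group's mean as a bar. Ms4a7 lies between 29.3 and 33.9 in the controls and between 80.9 and 87.6 with DB2313, Ms4a4a lies below its controls, and the points of Ms4a6d overlap.

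Levels of different genes were compared per kb of the gene length in the deposited table. Except for Ms4a4b, this length equals the pooled exons of all transcripts of the gene in GENCODE M21. It was 4453 bases over 5 transcripts for Ms4a7 and 836 over 1 for Ms4a4a, with coding lengths of 801 and 708. Places in the order therefore depend on this choice of length. In the control group the order was Ms4a6b with 101 ± 2.74 CPM per kb (SD, n = 3), Ms4a4b with 64.5 ± 2.04, Ms4a6d with 56.2 ± 0.571, Ms4a4a with 27.9 ± 1.90, Ms4a4c with 27.7 ± 0.293, Ms4a6c with 22.2 ± 0.512 and Ms4a7 with 6.97 ± 0.563. The libraries of Ms4a4a and Ms4a4c overlapped, and those of all other neighbours in this order did not. In the DB2313 group Ms4a6b with 156 ± 2.08, Ms4a4b with 110 ± 2.75 and Ms4a6d with 55.9 ± 0.674 CPM per kb kept the first places. Ms4a4c with 43.0 ± 0.984, Ms4a6c with 30.3 ± 1.31, Ms4a7 with 18.8 ± 0.756 and Ms4a4a with 12.8 ± 1.07 followed, and no neighbours overlapped. Ms4a4a thus moved from the fourth place to the last, below Ms4a7.

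**Figure D2:**
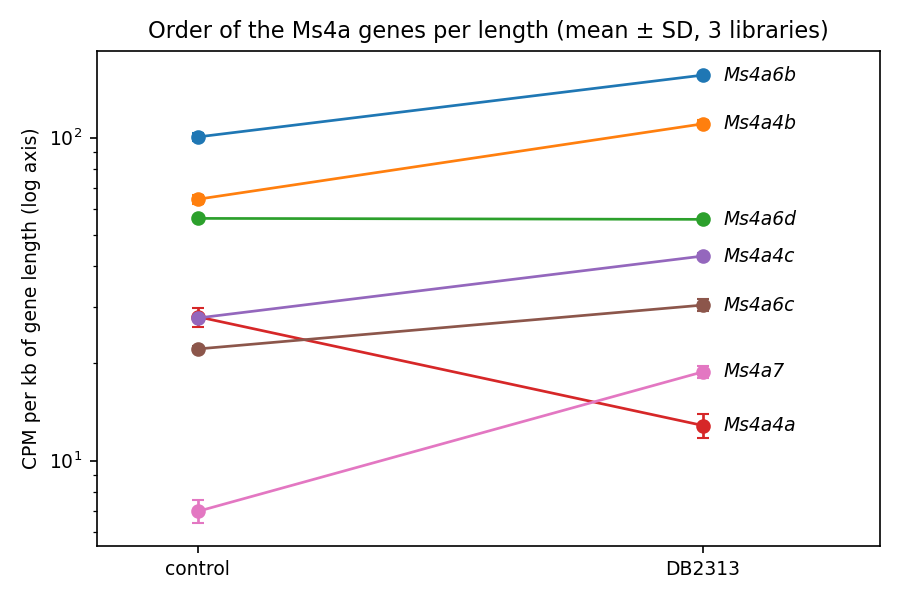
Mean ± SD over 3 libraries of CPM per kb of gene length (log axis) for each Ms4a gene in the control and the DB2313 group, joined by lines. The lines of Ms4a7 and Ms4a4a cross, from 6.97 and 27.9 CPM per kb to 18.8 and 12.8, while Ms4a6b stays highest.

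Ratios between the genes within a library do not depend on the scaling of that library. Per length, Ms4a7 was at 0.251 ± 0.0373 of Ms4a4a in the control group and at 1.48 ± 0.185 in the DB2313 group (SD, n = 3), a 5.87-fold larger ratio. Ms4a7 relative to the T cell gene Ms4a4b was at 0.108 ± 0.0123 and 0.171 ± 0.00753, without overlap. Ms4a4c relative to Ms4a6b was at 0.275 ± 0.00793 and 0.275 ± 0.00507, and the libraries overlapped. Of the 21 pairs among the 7 genes, this was the pair whose ratio overlapped between the groups. How often ratios of other genes overlap was not computed. Among single genes tested, 25.6% were higher and 27.5% lower without overlap.

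Markers of the cell types in the culture moved with the groups. All 20 genes of a T cell list rose (adjusted p alone, which 20.8% of all genes tested passed as higher), and their median log2 fold change was 0.61, with summed levels of 3464 to 3493 CPM in the control libraries and 5224 to 5268 in the DB2313 libraries. Of 25 macrophage genes, 23 were tested, and 20 fell and 2 rose by adjusted p alone, which 24.6% of all genes passed as lower, with a median of -1.08. Their sum was 14015 to 14337 CPM in the control libraries and 5365 to 5509 in the DB2313 libraries, and Vsig4, a marker of resident macrophages, was at 0 in all 6. Adgre1, the gene of the macrophage antigen F4/80, was at 297 and 80.3 CPM, and Csf1r, the receptor that macrophages need for survival, at 573 and 233 CPM. The libraries labelled T cells therefore held macrophage transcripts in both groups, and the part of these shifts in the Ms4a differences was not tested.

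The remaining lists stood between these extremes or moved in both directions, apart from the progenitor granule genes. By adjusted p alone, the rule for the counts that follow, 20.8% of all genes tested rose and 24.6% fell. Of 8 monocyte genes 2 rose and 5 fell by adjusted p alone, with sums of 1771 to 1829 and 1775 to 1848 CPM and a median of -0.29. Of 10 dendritic cell genes 1 rose and 8 fell, with sums of 3880 to 3936 and 2637 to 2674 CPM and a median of -0.48. Of 8 B cell genes 7 were tested and 4 rose, with a median of 0.46 and sums of only 44.4 to 46.9 and 65.3 to 67.5 CPM. Of 8 mast cell and basophil genes 7 were tested, and 3 rose and 3 fell, with a median of -0.02 and sums of 947 to 976 and 643 to 683 CPM. The 4 progenitor granule genes (Mpo, Elane, Prtn3 and Ctsg) all rose, with a median of 0.95 and sums of 449 to 469 and 891 to 915 CPM.

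**Figure D3:**
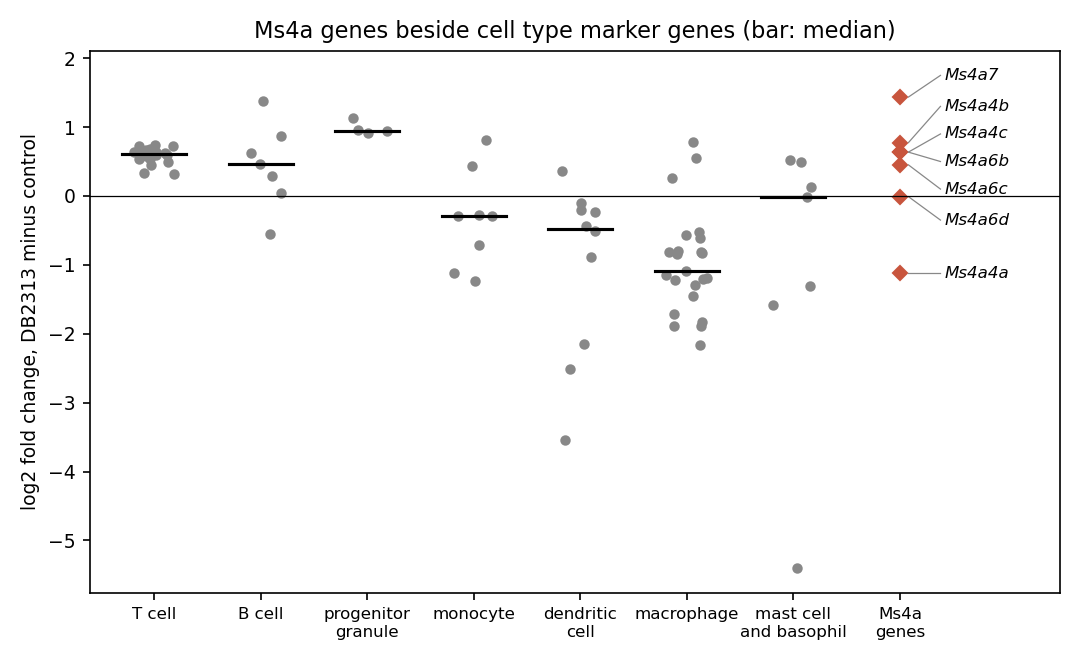
Log2 fold change (DB2313 minus control) of each marker gene tested in 7 cell type lists (grey points, median as a bar) and of the 7 Ms4a genes (red diamonds). Ms4a4c and Ms4a6b lie near the T cell median of 0.61, Ms4a4b lies just above all 20 T cell markers, Ms4a4a lies near the macrophage median of -1.08, and Ms4a7 lies above every T cell and macrophage marker.

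Set against 1000 counts of the T cell list, Ms4a6b and Ms4a4c were no longer separate from the controls. Ms4a6b was at 130 ± 4.08 in controls and 134 ± 2.22 with DB2313, and Ms4a4c at 13.9 ± 0.160 and 14.4 ± 0.387 (SD, n = 3), with overlapping libraries in both. Ms4a4b stayed higher, at 97.8 ± 3.51 and 111 ± 2.98, without overlap. Ms4a7 also stayed higher, at 8.92 ± 0.682 and 16.0 ± 0.706, a 1.79-fold ratio. Ms4a6c, at 13.1 ± 0.357 and 11.9 ± 0.478, Ms4a6d, at 28.1 ± 0.355 and 18.5 ± 0.147, and Ms4a4a, at 6.71 ± 0.479 and 2.05 ± 0.165, were lower without overlap. The T cell list was itself higher with DB2313, which shifts every gene downward on this scale. When libraries were scaled to T cell markers, the median log2 fold change of all genes tested was -0.57. Ms4a6d, at -0.60, lay near that median, and Ms4a6c, at -0.14, lay above it. The share of all genes without overlap on this scale was not computed.

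Set against 1000 counts of the macrophage list, all 7 genes were higher without overlap. The sum of this list was itself lower with DB2313, which shifts every gene upward on this scale. Ms4a6d, with a log2 fold change of -0.01 with TMM scaling, thus had a log2 difference of 1.36 here. The share of all genes that were higher on this scale was not computed. Ms4a7 was at 2.20 ± 0.148 in controls and 15.4 ± 0.837 with DB2313, a 7.01-fold ratio, and the macrophage gene with the opposite change, Ms4a4a, at 1.65 ± 0.132 and 1.97 ± 0.140, a 1.19-fold ratio. Lyz2, the macrophage lysozyme, made up 54.1% to 54.7% of the counts of this list in the control libraries and 38.1% to 38.3% in the DB2313 libraries. Without Lyz2, an alternative chosen after the values were seen, Ms4a4a was at 3.63 ± 0.286 and 3.19 ± 0.233, with overlapping libraries. With TMM scaling, the log2 fold change of Ms4a4a was 0.036 below the median of the whole list, Lyz2 included. Ms4a7 was 5.16-fold higher without Lyz2, and the other 5 genes stayed higher without overlap. With Lyz2, Ms4a6d was 2.57-fold higher on this scale, and the other 4 genes between 3.54-fold and 4.43-fold. Ms4a6c and Ms4a6d were thus lower against the T cell list and higher against the macrophage list. These 2 scales move all genes in those directions, so this pattern is not particular to Ms4a6c and Ms4a6d. Ms4a4a was higher only against the macrophage list with Lyz2, whereas Ms4a7 and Ms4a4b were higher on each of these scales.

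**Figure D4:**
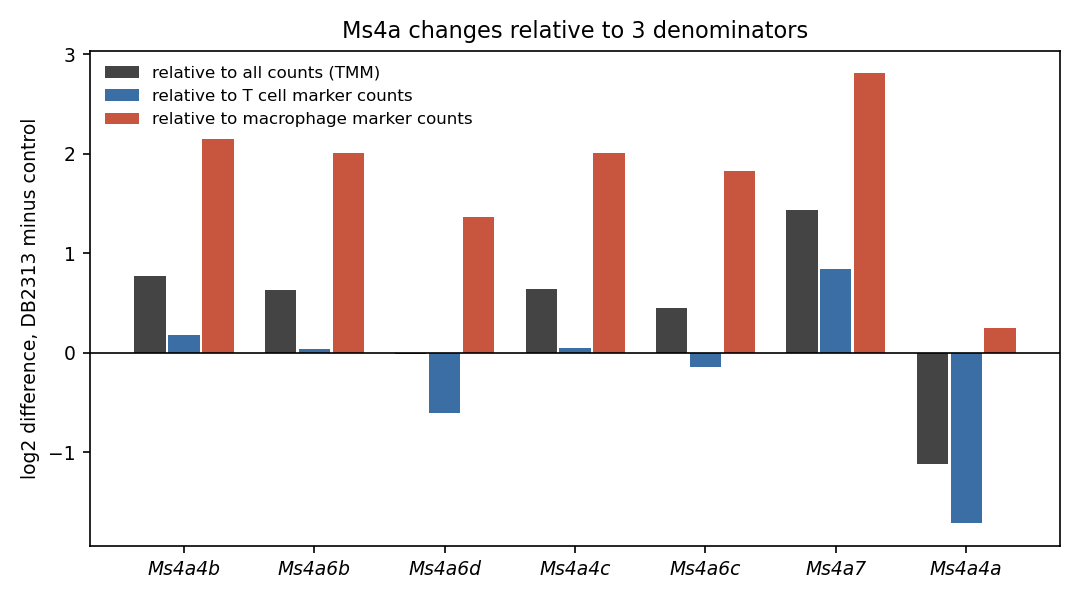
Log2 difference (DB2313 minus control) of each Ms4a gene relative to all counts with TMM scaling (grey), to the counts of the T cell marker list (blue) and to the counts of the macrophage marker list (red). Ms4a7 is above 0 on all 3 scales, Ms4a4a lies at -1.12, -1.71 and 0.25 (the last with Lyz2 in the list, and -0.19 without it), and Ms4a6b and Ms4a4c are near 0 relative to T cell markers.

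The other genes of the family were tested. Of 12 further Ms4a genes in the table, 5 (Ms4a5, Ms4a10, Ms4a12, Ms4a13 and Ms4a18) were at 0 in all libraries, which allows up to 3 counts each or 0.181 CPM in the library with the fewest counts, and 4 passed the filter. At an edgeR adjusted p under 0.05 and an absolute log2 fold change over 1, 1 of the 4 rose and none fell, where 6.67% of all genes tested were called, 1.37% as higher and 5.3% as lower. Ms4a14 had 20, 49 and 36 counts in the control libraries and 84, 82 and 84 in the DB2313 libraries. It rose with a log2 fold change of 1.18 (SE 0.253, edgeR adjusted p = 0.000486), which was 0.87 without control replicate 1, the library with the fewest Ms4a14 counts, and then no longer past the fold limit.

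Ms4a3, a gene of granulocyte and monocyte progenitors, had 46.8, 46.8 and 49.6 CPM in the control libraries and 65.7, 69.7 and 69.8 in the DB2313 libraries. It rose by adjusted p alone, with a log2 fold change of 0.52 (SE 0.0555, edgeR adjusted p = 4.18e-08), beside the rise of the progenitor granule genes. Ms4a1, which encodes the B cell antigen CD20, rose from 5.57 ± 0.830 to 7.70 ± 0.365 CPM with a log2 fold change of 0.47 (SE 0.150, edgeR adjusted p = 0.0134), a call lost with DESeq2 (adjusted p = 0.058) and in edgeR without control replicate 1 (0.066). Ms4a2, the beta chain of the IgE receptor of mast cells and basophils, was at 37.1 ± 2.03 and 39.8 ± 2.63 CPM, and its log2 fold change of 0.10 did not pass (edgeR adjusted p = 0.241). Ms4a2 passed as higher by adjusted p alone with library size scaling (0.20, edgeR adjusted p = 0.0227) and upper quartile scaling (0.17, 0.0477). Scaled to T cell markers instead, Ms4a1, Ms4a2 and Ms4a3 had values of -0.12, -0.49 and -0.074, of which that of Ms4a2 passed as lower (edgeR adjusted p = 9.43e-07).

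Partners of MS4A proteins were tested as a list of 7 genes, of which 2 rose and 5 fell by adjusted p alone (20.8% and 24.6% of all genes tested) and 1 fell past the fold limit (5.3% of all genes tested). With T cell marker scaling, 5 fell past that limit, since Syk (-1.45), Tyrobp (-1.55), Card9 (-1.26) and Fcer1g (-1.20) then passed it too. The gene past it with TMM was Clec7a, the Dectin-1 receptor, with 278, 270 and 274 CPM in the control libraries and 121, 109 and 106 in the DB2313 libraries. Its log2 fold change of -1.29 (SE 0.0422, edgeR adjusted p = 1.75e-17) stood beside -1.12 for its partner Ms4a4a. The median of the macrophage list was -1.08, and 20 of the 23 genes tested in that list fell by adjusted p alone. Whether the partners changed apart from that list was not tested. Syk, the kinase that signals after Dectin-1, fell by 0.86 on the log2 scale (SE 0.0357, edgeR adjusted p = 1.88e-15), and Card9, the adaptor further along that pathway, fell by 0.67 (SE 0.0571, edgeR adjusted p = 8.86e-10).

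The adaptors of activating receptors fell as well, Tyrobp by 0.96 on the log2 scale and Fcer1g by 0.61, with edgeR adjusted p = 8.03e-15 and 3.88e-12. Trem2, a lipid receptor of macrophages that signals through Tyrobp, rose from 118 ± 2.47 to 173 ± 9.98 CPM (log2 fold change 0.55, edgeR adjusted p = 1.35e-10). Scaled to T cell markers, Trem2 had -0.042. Tnfrsf18, the gene of GITR and partner of Ms4a4b, rose from 106 ± 5.30 to 162 ± 4.86 CPM, with a log2 fold change of 0.61 (edgeR adjusted p = 1.88e-11) beside 0.78 for Ms4a4b. Scaled to T cell markers, Tnfrsf18 had 0.017 and did not pass (edgeR adjusted p = 0.713).

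Between the first and the last of the 7 genes, the table held 9 genes whose names do not start with Ms4a, of which 6 passed the filter. Relatives of the family under other names were not set apart. By adjusted p alone 5 of them rose and none fell, where 20.8% and 24.6% of all genes tested did, and 1 passed the fold limit. With DESeq2, 3 of the 5 passed. The gene past the fold limit was Gm5511, a processed pseudogene between Ms4a4c and Ms4a4b, with 33, 35 and 19 counts in the control libraries and 55, 64 and 97 in the DB2313 libraries and a log2 fold change of 1.25 (SE 0.269, edgeR adjusted p = 0.000531), which was 0.996 without DB2313 replicate 3 and then just under the limit. Gm19261, which overlaps Ms4a6b on the opposite strand by 19 exonic bases, rose by a log2 fold change of 0.92 (edgeR adjusted p = 7.41e-05), and Gm8369, a protein-coding gene between Ms4a6c and Ms4a6b, by 0.79 (edgeR adjusted p = 7.85e-11). Scaled to T cell markers, Gm19261 had 0.32 and did not pass (edgeR adjusted p = 0.080), and Gm8369 had 0.20. Gm19261 passed the fold limit with library size scaling (1.01) and without control replicate 1 (1.06).

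Gm37387, which the reference annotation joins to Ms4a4b, rose by 0.40 on the log2 scale (edgeR adjusted p = 0.0198), a call lost with DESeq2 (adjusted p = 0.075) and in edgeR without control replicate 1 (0.080) or 3 (0.096) or without DB2313 replicate 3 (0.063). BE692007, the gene opposite Ms4a6c, rose by 0.18 (edgeR adjusted p = 0.0442), against 0.45 for Ms4a6c. This call was lost with DESeq2 (adjusted p = 0.108) and in edgeR without control replicate 1 (0.069) or 3 (0.191) or without DB2313 replicate 1 (0.292, log2 fold change 0.10). Gm28935, next to Ms4a4a, had 0.40 without passing (edgeR adjusted p = 0.288). Scaled to T cell markers, BE692007, Gm28935 and Gm37387 had -0.41, -0.19 and -0.19. Ms4a4a was the gene of the cluster with a negative value beyond its standard error. In the 500 kb on either side, 13 of 45 genes without an Ms4a name passed the filter. Of these, 1 rose and 8 fell by adjusted p alone, where 20.8% and 24.6% of all genes tested did.

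**Figure D5:**
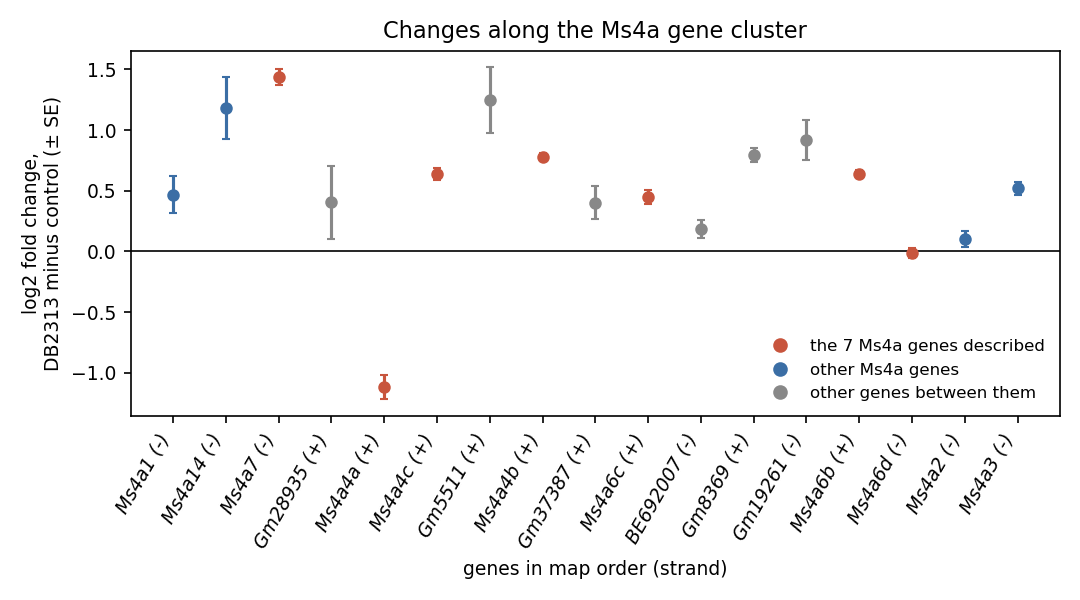
Log2 fold change ± SE (DB2313 minus control) of the Ms4a genes and the genes between them that passed the filter, in map order with the strand. Ms4a7 at 1.44 and Ms4a4a at -1.12 are near neighbours on opposite strands, and the other values lie between -0.01 and 1.25.

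The genes most like a member in their log2 CPM over the 6 libraries, each centred on its own mean, were sought among 9325 protein-coding genes. For Ms4a7 they were Gpx3, Clec10a and Mmp13 at Euclidean distances of 0.237, 0.369 and 0.394. For Ms4a4b they were Gimap6, Gimap9 and Cd3g at 0.0921, 0.103 and 0.103, the last a T cell receptor chain of the T cell list. For Ms4a6b they included Smc4, a condensin subunit, at 0.0400 and Ctla2a at 0.0481. Gpx3, a secreted glutathione peroxidase, was at 49.9 ± 2.48 and 126 ± 3.74 CPM, and Clec10a, a galactose-binding lectin of macrophages and dendritic cells, at 38.9 ± 1.16 and 88.0 ± 3.58 CPM (SD, n = 3).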

How the data were processed

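The authors sequenced the libraries, aligned the reads and deposited raw counts per gene with gene lengths. The methods name LifeScope 2.5.1, whereas the submitters' processing notes list CASAVA 1.8, HISAT2 2.0.5 and featureCounts 1.5.0-p3. Genome build, annotation and strand setting are not given in the sources used here, and 98.33% of the 54409 genes shared with GENCODE M21 had its GRCm38 coordinates, 6 of the 7 Ms4a genes among them (Ms4a4b's model is longer in GENCODE).

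The libraries held 16611975 to 18596217 counts in total. Counts were fitted in R 4.3.3 with edgeR 4.0.16 (filterByExpr, TMM, glmQLFit, glmQLFTest) and p-values adjusted by Benjamini-Hochberg over the 14883 genes tested. The thresholds were an adjusted p under 0.05 and an absolute log2 fold change over 1. The script was tested on simulated counts. For a gene at 0, up to 3 counts per library were allowed for, which covers counting error only. The chi-square per gene between libraries was 2.48 to 3.81 within groups and 46.9 to 50.5 between groups, so no library repeated another.

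The Ms4a genes and the lists were chosen with earlier results of these data known. Named genes are the 7 Ms4a genes, the other Ms4a genes and the genes between them that passed the filter, 7 partners, and, for Ms4a7, Ms4a4b and the highest other member, the 3 most similar protein-coding genes with at least 10 CPM. 1 of these genes is not reported here. Marker genes, among them Adgre1, Csf1r and Vsig4, were named as examples after their values were seen. Sequences were aligned with Biopython 1.88, and promoters are from RefSeq. Alternatives were DESeq2 1.42.0, other scalings (library size, upper quartile, DESeq2 size factors, T cell markers) and filters, a replicate block, the adjusted p alone, protein-coding genes only and leaving out each library. A macrophage list without Lyz2 was added after the data were seen.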

Additional observations from a re-analysis of the deposited data

How the results depend on the processing

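The 7 Ms4a genes kept their direction in every alternative except Ms4a6c scaled to the T cell markers (-0.14) and Ms4a6d with library size (0.084) and upper quartile scaling (0.054). Their median log2 fold change of 0.64 became 0.73 with library size scaling, 0.70 with upper quartile scaling and 0.043 with T cell marker scaling, and ranged from 0.62 to 0.64 when 1 library was left out. T cell marker scaling moved the median of all genes to -0.57. Relative to that median Ms4a7 stood at 1.42 and Ms4a4a at -1.14, as with TMM. A change of scaling shifts all genes by nearly the same amount, so this agreement was fixed in advance and tests nothing. T cell marker scaling gave 51 higher and 2541 lower calls (98.0% lower) where TMM gave 204 and 789 (79.5% lower). At least 10 counts in every library gave 103 and 581, protein-coding genes alone 133 and 650, and the adjusted p alone 3096 and 3667. Of the other Ms4a genes, 1 was called, 0 with T cell marker scaling (Ms4a14 0.59), 3 with the adjusted p alone, and 0 to 1 when 1 library was left out, 0 without control replicate 1. T cell marker scaling also reversed BE692007 (-0.41), Gm28935 (-0.19), Gm37387 (-0.19), Ms4a1 (-0.12), Ms4a2 (-0.49), Ms4a3 (-0.074) and Trem2 (-0.042). It took Gm5511 (0.66) under the fold limit, ended the calls by adjusted p alone of Tnfrsf18 (0.017) and Gm19261 (0.32), and lowered Gm8369 from 0.79 to 0.20. The cause of these differences was not tested, beyond the change of denominator itself.

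Control and DB2313 samples share replicate numbers. The deviations of same-numbered samples had correlations of 0.0025, -0.011 and -0.0051, beside -0.023 to 0.028 for the other pairs. No pairing by number was seen, but with 3 samples a group these correlations cannot exclude it. With the replicate block the median of the 7 genes was 0.64, 1 other Ms4a gene was called, and 201 genes were higher and 790 lower. With 3 libraries a group, precision for genes of few counts such as Ms4a14 and Gm5511 was limited, and no group was large enough for a check of outlying samples.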

Other observations

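The 3 family members with few counts did not pass the filter. Ms4a8a had 8, 13 and 15 counts in the control libraries and 5, 7 and 5 in the DB2313 libraries, all DB2313 libraries below all control libraries. Ms4a4d had 7, 10 and 6 counts against 5, 10 and 7, with overlapping groups, and Ms4a15 had 3 counts in 1 DB2313 library and 0 in the other 5.

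In the 500 kb on either side of the cluster, the genes past the fold limit were Oosp1 and Tmem132a, named after their values were seen. Oosp1, known as an oocyte gene, had 54, 42 and 34 counts in the control libraries and 11, 6 and 5 in the DB2313 libraries (log2 fold change -2.60, edgeR adjusted p = 4.29e-06). Tmem132a was at 32.3 ± 2.14 and 15.3 ± 2.38 CPM (log2 fold change -1.08, edgeR adjusted p = 2.33e-09). Slc15a3, also named after its values were seen, fell just short of the limit. It was at 257 ± 4.80 and 129 ± 4.02 CPM (log2 fold change -0.9999, edgeR adjusted p = 1.79e-16). The gene there that rose by adjusted p alone was Cd6, a T cell surface receptor of the T cell list, at 113 ± 1.11 and 159 ± 3.83 CPM (edgeR adjusted p = 1.22e-10).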
